A study of Mus musculus with 12 samples.

Results

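The glucose transporters described here are 6 members of the facilitative SLC2 (GLUT) family in mouse heart: *Slc2a1*, *Slc2a3*, *Slc2a4*, *Slc2a8*, *Slc2a10* and *Slc2a12*. They were taken by name, as every non-control probe whose gene name in the array files equals one of these symbols, and not by their measured values. These are 6 of 37074 gene names on the array and 10 of its 56605 probes. Of the 10 probes, 8 were tested, at least 1 for each gene, among 30859 tested in all. Heart muscle of male C57BL6/J mice was examined, with an age of 5 months in the labels. The 4 groups were vehicle-treated control mice (C), control mice given pargyline (C + P), diabetic mice (D) and diabetic mice given pargyline (D + P). Diabetes was induced with intraperitoneal streptozotocin, a toxin of pancreatic β-cells, at 50 mg/kg/day on 5 days, and pargyline, an inhibitor of monoamine oxidases, was given at 50 mg/kg/day for 12 weeks. Each group had 3 arrays, which the methods of the study describe as biological replicates. The model is one of insulin lack, and the pancreatic β-cells are not the tissue measured.

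Facilitative glucose transporters let glucose cross membranes down its concentration gradient. *Slc2a4* encodes GLUT4, the main transporter of adult heart muscle, which insulin and contraction bring from internal vesicles to the cell surface. *Slc2a1* encodes GLUT1, which sits at the surface and carries basal uptake in many cell types. *Slc2a3* encodes GLUT3, a high-affinity transporter known from neurons, white blood cells and platelets. *Slc2a8*, *Slc2a10* and *Slc2a12* encode GLUT8, GLUT10 and GLUT12, of which GLUT8 is held largely on internal membranes and GLUT12 is also known from heart and skeletal muscle. The RNA came from whole tissue, so fewer cells of a type and less RNA per cell cannot be told apart.

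The arrays carry 60-base probes, and the coordinates in their annotation are those of the mouse build mm9. Whether a probe lies in coding or untranslated sequence is not given in the sources used here. The sequences below are shown because probes of the same gene gave very different signals, so that which stretch of RNA was measured matters. Whole probes are given where they start in the first 1500 bases of the transcript, and otherwise only the last 30 bases. Capitals mark the hexamers AATAAA and ATTAAA, which are known as polyadenylation signals and were searched in the printed direction only.
Slc2a4 A_51_P217498: caagggctgctgtATTAAAtgtgtatatag
Slc2a4 A_55_P2734837: tagaagtcttctaaaaAATAAAccagtggt
Slc2a12 A_55_P2146555: cttctacctctggttttttaaaaataatct
Slc2a12 A_51_P345775: gtatggaacgagacatttgtgttttcaata
Slc2a12 A_66_P122739: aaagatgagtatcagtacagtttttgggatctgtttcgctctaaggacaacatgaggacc
Slc2a3 A_52_P354744: acccttgcatagagtggtagagccatatct
Slc2a3 A_51_P384222: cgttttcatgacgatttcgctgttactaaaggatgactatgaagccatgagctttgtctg

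Both *Slc2a4* probes hold one of the hexamers, as do 13.4% of all 56605 probes, while none of the other 8 transporter probes does. The first *Slc2a4* probe was designed on the RefSeq transcript NM_009204 and lies on the minus strand at chr11:69756073-69756132. The other was designed on a RIKEN cDNA clone, AK138832, and lies 1176 bases away at chr11:69757309-69757368, also on the minus strand. The 2 tested *Slc2a12* probes lie at chr10:22424022-22424081 and chr10:22423536-22423595, and the silent one far upstream at chr10:22384837-22384896. The tested *Slc2a3* probe lies at chr6:122678075-122678134, and the silent one spans 834 bases of genome at chr6:122681586-122682419, so it joins separate stretches. *Slc2a1* was measured by 1 probe at chr4:118809864-118809923, *Slc2a8* by 1 at chr2:32831712-32831771 and *Slc2a10* by 1 at chr2:165344713-165344772.

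The signals of the 12 arrays differed in quality, and 1 array held a local defect that touched these genes. Repeated spots had a median coefficient of variation of 6.03% to 11.5% on 7 arrays and 15.8% to 35.3% on the others, which were replicate 1 of each group and D + P replicate 3. No spot was saturated. The C and D arrays shared 1 slide and the C + P and D + P arrays the other, so slide and pargyline cannot be told apart. On each slide the non-diabetic arrays took one row and the diabetic arrays the other, so this position and diabetes cannot be told apart either. All 7 cardiomyocyte markers examined, among them *Myh6* and *Tnnt2*, were well above background on all 12 arrays. Of 6 adipocyte markers 4 were not well above background on any array, *Adipoq* and *Plin1* among them, while *Lep* was on all 12 and *Cfd* on 5. Of the 4 atrial markers *Sln* and *Bmp10* were not on any array, while *Myl4* was on all 12 and *Myl7* on 4.

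On D + P replicate 3, both tested *Slc2a12* spots lay in a dim area of the array. The deviation of each bright spot, one well above background on at least 8 arrays, was taken from its own median over the 12 arrays. Within 6 rows and 6 columns of the spot of A_55_P2146555, the 73 bright neighbours had a median deviation of -2.14 log2 on this array, and 60 of them lay below -1. Around the spot of A_51_P345775 the median of 73 neighbours was -1.13, and 37 lay below -1. Over the whole array 3.44% of bright spots lay below -1. No spot on the other 11 arrays had such a neighbourhood with a median below -1. The *Slc2a3* spot sat at the edge of a second dim strip, where the 11 bright spots of its own block of 8 rows and columns had a median of -1.10, although the median over the 36 bright spots of the wider neighbourhood was -0.22. Around the spots of *Slc2a1*, *Slc2a4*, *Slc2a8* and *Slc2a10* the neighbourhood medians on this array ranged from -0.11 to 0.15. The changes of *Slc2a12* and the tests of *Slc2a3* that involve D + P are therefore given with and without this array.

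**Figure D1:**
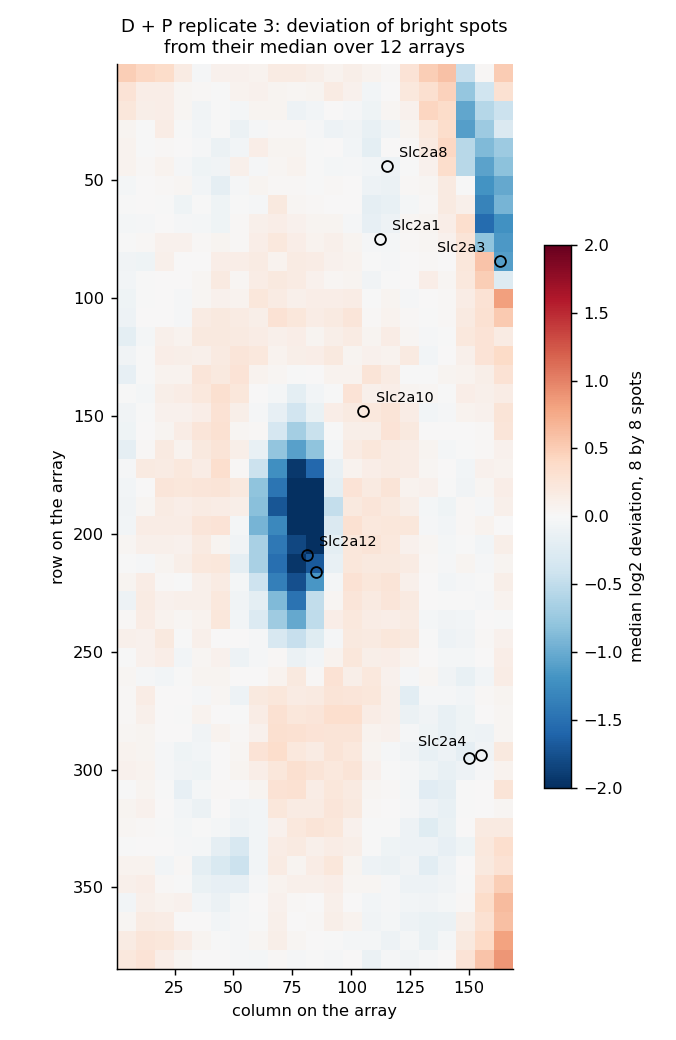
Median log2 deviation of bright spots from their own median over 12 arrays, in blocks of 8 by 8 spots across the array of D + P replicate 3 (x axis, column; y axis, row; blue, dimmer; red, brighter). Circles mark the 8 tested transporter spots: both *Slc2a12* circles lie in the dark blue area, *Slc2a3* lies in a blue strip at the right edge, and the others lie in pale areas.

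The main question was whether diabetes, with and without pargyline, was accompanied by other transporter RNA levels. None of the 8 probes passed an adjusted p of 0.05 in any of the 6 contrasts, by limma with Benjamini-Hochberg adjustment over all 30859 tested probes. Few probes of any gene passed. The share of all tested probes was 0.00648% between D and C, 0.0454% between D + P and C + P, and 0.107% for diabetes averaged over pargyline. It was 0.0324% between C + P and C, 0% between D + P and D, where 13.3% had an unadjusted p under 0.05, and 0.00648% for the interaction, the difference between the diabetes effects with and without pargyline. With the unadjusted p, 0 transporter probes were under 0.05 between D and C, where 10.8% of all probes were, and 2 between D + P and C + P, where 7.46% were. For averaged diabetes 1 was, beside 11.4% of all probes. Between C + P and C there were 0, beside 4.43%, between D + P and D there were 2, beside the 13.3%, and for the interaction there was 1, beside 7.03%. The probes behind these counts were those of *Slc2a4*, *Slc2a3* and *Slc2a12* described below. Over the brightest probe of each gene, 5 of 6 were higher in D than in C, beside 48.9% of all tested probes. The median log2 change was 0.36, against -0.01 over all tested probes. Under pargyline 2 of 6 were higher in diabetic hearts, beside 51% of all tested probes, with a median of -0.29 against 0.01. Without D + P replicate 3 these became 3 of 6 and a median of 0.00, against 0.00 over all tested probes. In 3 of these 6 genes, *Slc2a3*, *Slc2a8* and *Slc2a10*, the probe was not well above background on most arrays. The D against C changes of the other 3 were -0.30 for *Slc2a4*, 0.09 for *Slc2a12* and 0.28 for *Slc2a1*. The genes are therefore taken one by one.

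**Figure D2:**
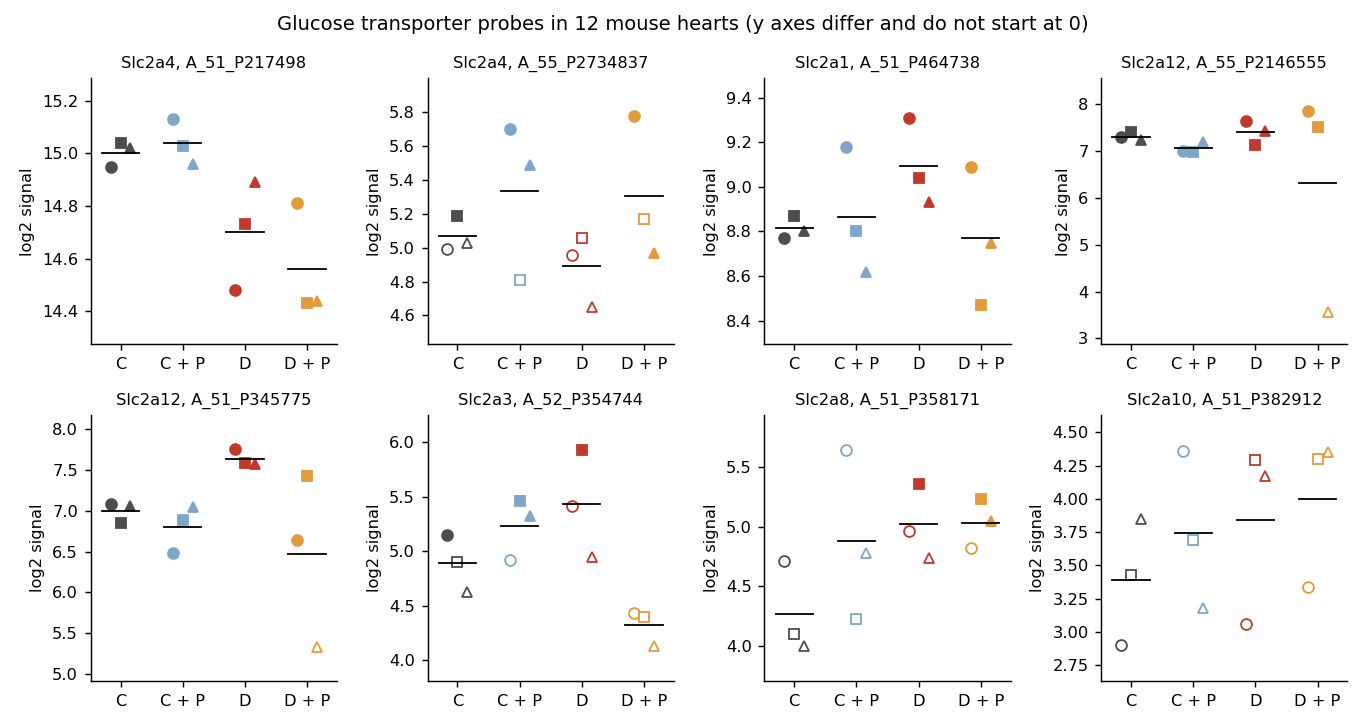
Quantile-normalised log2 signal (y axis, scaled to each probe) of the 8 tested transporter probes in the 4 groups (x axis). Circles, squares and triangles are replicates 1, 2 and 3, open symbols mark arrays on which the probe was not well above background, and lines mark group means. The *Slc2a4* probe A_51_P217498 is lower on all 6 diabetic arrays, and D + P replicate 3 stands far below the rest for both *Slc2a12* probes.

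*Slc2a4* was the one transporter that separated all diabetic from all non-diabetic hearts. Its bright probe, A_51_P217498, gave log2 signals of 14.95, 15.04 and 15.02 in C, and of 15.13, 15.03 and 14.96 in C + P. The diabetic arrays read 14.48, 14.73 and 14.89 in D, and 14.81, 14.43 and 14.44 in D + P. All 6 diabetic arrays thus lay below all 6 non-diabetic ones, a pattern that 0.652% of tested probes showed in this direction. This pattern includes the separation of each pair, D below C, as for 10.4% of tested probes, and D + P below C + P, as for 6.57%. The mean difference, averaged over pargyline, was -0.39 log2 (SE 0.11, n = 6 against 6), a signal 0.763 times that of non-diabetic hearts with a 95% interval of 0.641 to 0.91. It did not pass over all probes (limma, adjusted p = 0.255). Without pargyline the difference was -0.30 (SE 0.16, adjusted p = 0.515 by limma), and with pargyline -0.48 (SE 0.16, adjusted p = 0.546 by limma). The former was smaller under other processing, at -0.10 with 75th percentile scaling and -0.12 with normexp background correction. With single arrays left out it ranged from -0.39 without D replicate 3 to -0.19 without D replicate 1. With normexp the averaged difference was -0.21. The difference between the diabetes effects with and without pargyline, -0.48 and -0.30, was -0.18 with a 95% interval of -0.69 to 0.33 log2. It was thus not detectable with 3 arrays a group. Pargyline by itself left the probe at a difference of 0.03 (95% interval -0.32 to 0.39) in control hearts and -0.15 (95% interval -0.50 to 0.21) in diabetic hearts.

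The other *Slc2a4* probe showed no such separation. A_55_P2734837 read 4.99, 5.19 and 5.03 in C, 5.70, 4.81 and 5.49 in C + P, 4.96, 5.06 and 4.65 in D, and 5.78, 5.17 and 4.97 in D + P. It was well above background on 5 of 12 arrays, 0 of them in D, so that the D level is only an upper bound and no fold is given against it. Its computed diabetes difference over both treatments was -0.10 log2 with a 95% interval of -0.52 to 0.31. As this includes the D values, it is no measured change and is not set against the -0.39 of the bright probe. The bright minus the dim probe on each array differed between diabetic and non-diabetic hearts by a mean of -0.29 log2 (exact two-sided permutation test within slides, p = 0.15 over 400 arrangements, 3 arrays a group). Since the dim probe was not well above background on most arrays, neither value tells whether the RNA at the 2 places changed alike.

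The platelet and myeloid marker sums also separated diabetic from non-diabetic arrays, which was not tested, while the erythroid sum did not. The summed signal of 5 platelet markers ranged from 2630 to 3020 in C and from 2940 to 3540 in C + P. In D it ranged from 2120 to 2490, and in D + P from 2000 to 2420. Of these markers only *Pf4* was well above background on all 12 arrays. *Ppbp* was so on 9 and *Gp9* on 7, and *Itga2b* and *Gp1bb* were not on any array. The summed signal of 7 myeloid markers, 6 of them well above background on every array, ranged from 19300 to 22100 in C and from 19600 to 29800 in C + P, against 16400 to 18300 in D and 13700 to 17100 in D + P. Both sums were lower on all diabetic arrays than on all non-diabetic ones. Their part in the *Slc2a4* and *Slc2a3* values was not tested. The cardiomyocyte sum overlapped between all groups, from 502000 to 613000 in the non-diabetic and from 489000 to 616000 in the diabetic hearts. The atrial, skeletal muscle, adipocyte, endothelial, erythroid (965 to 1850 in non-diabetic and 738 to 1420 in diabetic hearts), fibroblast, and nerve and glia sums also overlapped between the 6 diabetic and the 6 non-diabetic arrays. Single pairs of groups were separate in some of them. The nerve and glia sum ranged from 22000 to 24300 in C against 12400 to 20700 in D, and the endothelial sum from 10500 to 12500 in D against 13500 to 16700 in D + P. Their part in the *Slc2a3* values was not tested.

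*Slc2a1*, the basal transporter GLUT1, was well above background on every array, with signals from 8.47 to 9.31. It read 8.77, 8.87 and 8.80 in C, 9.18, 8.80 and 8.62 in C + P, 9.31, 9.04 and 8.93 in D, and 9.09, 8.47 and 8.75 in D + P. All D arrays lay above all C arrays, as 11.9% of tested probes did, whereas the 2 pargyline groups overlapped. The difference was 0.28 log2 (SE 0.20) without pargyline, with a 95% interval of -0.17 to 0.73, and -0.10 (SE 0.20) with pargyline, with a 95% interval of -0.54 to 0.35. Neither passed (limma, adjusted p = 0.61 and 0.934), nor did the difference between D + P and D, -0.33 (SE 0.20, adjusted p = 0.496 by limma). The highest array of C + P, of D and of D + P was replicate 1 each time. The bright neighbours of the *Slc2a1* spot lay 0.31, 0.10 and 0.28 above their own medians on these 3 arrays, and between -0.08 and 0.01 on the other 9. After subtraction of the neighbourhood medians the *Slc2a1* differences between diabetic and non-diabetic hearts were 0.22 without and -0.03 with pargyline. The difference between D + P and D was then -0.35 (95% interval -0.65 to -0.05) and did not pass (limma, adjusted p = 0.296).

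Relative to *Slc2a4* on the same array, *Slc2a1* was higher in diabetic hearts. The log2 difference between the 2 bright probes depends on the probes themselves, so only its change between groups is read. It was -6.19, -6.16 and -6.22 in C and -5.95, -6.23 and -6.34 in C + P, against -5.17, -5.69 and -5.96 in D and -5.72, -5.96 and -5.69 in D + P. The diabetic groups lay higher by 0.58 without pargyline and 0.38 with it, a mean of 0.48 log2. D replicate 1, the array whose repeated spots varied most, stood highest, and without it the difference was 0.37 without pargyline and 0.37 on average. An exact two-sided permutation test of the diabetes label within slides gave p = 0.01 over 400 arrangements, where the smallest possible is 0.005, and 0.02 after adjustment over the 2 such tests. The lower *Slc2a4* signal was known when this pair was chosen, so the value is a description of these arrays and no independent evidence of an unequal change. Without the 5 arrays of highest spread it was 0.35 (exact permutation test, p = 0.0556, the smallest that the 18 arrangements left allow).

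**Figure D3:**
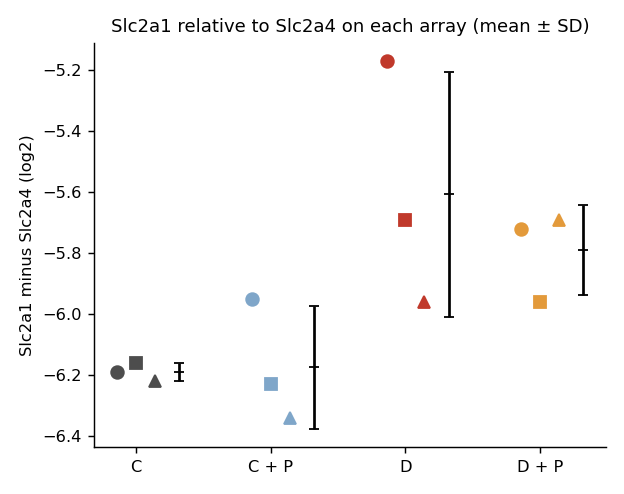
Log2 signal of *Slc2a1* minus that of *Slc2a4* (A_51_P217498) on each array (y axis, not starting at 0) in the 4 groups (x axis). Circles, squares and triangles are replicates 1, 2 and 3, and bars give the mean ± SD of 3 arrays. The diabetic means are -5.61 and -5.79, against -6.19 and -6.17 in the non-diabetic groups, and C + P replicate 1, at -5.95, lies level with the lowest diabetic arrays.

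*Slc2a12*, which encodes GLUT12, was measured by a pair of probes that differed in D. A_51_P345775 read 7.08, 6.85 and 7.06 in C and 7.76, 7.59 and 7.57 in D, with all D arrays above all C arrays, as for 11.9% of tested probes, and a difference of 0.65 log2 (SE 0.41, adjusted p = 0.562 by limma). A_55_P2146555 read 7.29, 7.40 and 7.22 in C and 7.63, 7.12 and 7.42 in D, overlapping, with a difference of 0.09 (SE 0.86). Both SEs take in the spread of D + P replicate 3, and without that array the differences were 0.65 (SE 0.23, adjusted p = 0.403 by limma) and 0.09 (SE 0.17, adjusted p = 0.865). In C + P the first probe read 6.48, 6.89 and 7.05 and overlapped with C. The second read 7.00, 6.98 and 7.18 and lay below all C arrays, as 8.01% of tested probes did. As measured, the probes thus did not separate the same groups. The bright neighbours of the second spot had medians of -0.20 and -0.28 on C + P replicates 1 and 2. After subtraction of the neighbourhood medians this probe read 7.20, 7.27 and 7.14 in C + P and 7.32, 7.39 and 7.20 in C, overlapping. The differences between D and C were then 0.62 and 0.02.

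In D + P the *Slc2a12* values hung on replicate 3. A_51_P345775 read 6.64, 7.43 and 5.33, and A_55_P2146555 read 7.85, 7.51 and 3.57, the last of each on the array with the dim area around both spots. With this array, A_51_P345775 was lower in D + P than in D (change -1.18 log2, SE 0.41, adjusted p = 0.274 by limma), with no overlap, as for 9.11% of tested probes. The change of A_55_P2146555 was -1.08 (SE 0.86, adjusted p = 0.598 by limma). Without replicate 3 these changes were -0.61 (SE 0.26) and 0.29 (SE 0.19), so the second turned its direction. After subtraction of the neighbourhood median they were -0.79 and -0.38, with D + P replicate 3 at 6.46 and 5.71. Between D + P and C + P the 2 probes differed by -0.34 and -0.74 with all arrays, and by 0.23 and 0.63 without replicate 3. Averaged over pargyline and without replicate 3, diabetic hearts were higher by 0.44 (SE 0.17, adjusted p = 0.467 by limma) and 0.36 (SE 0.13, adjusted p = 0.435), against 0.15 and -0.33 with all arrays. The remaining probe, A_66_P122739, was not well above background on any array.

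**Figure D4:**
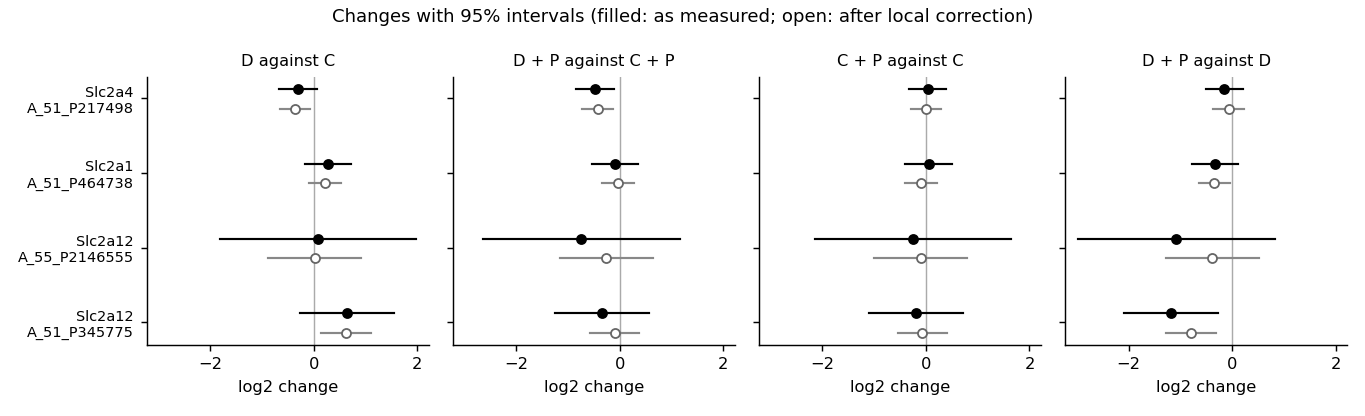
Log2 change (x axis) with its 95% interval from limma for the 4 probes that had arrays well above background in every group (y axis), in 4 comparisons (panels). Filled points are values as measured and open points those after subtraction of the neighbourhood median. The intervals of the *Slc2a12* probe A_55_P2146555 are the widest, and those of *Slc2a4* lie below 0 in D + P against C + P.

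*Slc2a3*, which encodes GLUT3, was dim, and its lowest values were those of D + P. Its tested probe read 5.15, 4.90 and 4.63 in C, 4.92, 5.46 and 5.32 in C + P, 5.42, 5.93 and 4.95 in D, and 4.43, 4.40 and 4.13 in D + P. Of 12 arrays 4 measured it well above background, 0 of them in D + P, whose level is therefore only an upper bound. All D + P arrays lay below those of D and below those of C + P, as 9.11% and 6.57% of tested probes did. C and D overlapped. No fold is given for any pair of groups, since D and C were well above background on 1 of 3 arrays each and C + P on 2 of 3. None of the contrasts passed by limma, with adjusted p-values of 0.176 for D + P against D, 0.409 under pargyline, 0.473 for D against C and 0.565 for the interaction. Without D + P replicate 3, whose *Slc2a3* spot lay in a dim strip, the adjusted p-values of the contrasts with D + P were 0.252, 0.677 and 0.687. A second *Slc2a3* probe, A_51_P384222, was not well above background on any array.

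*Slc2a8* and *Slc2a10* were at or near background. The *Slc2a8* probe read 4.71, 4.10 and 4.00 in C, 5.64, 4.22 and 4.78 in C + P, 4.96, 5.36 and 4.74 in D, and 4.82, 5.23 and 5.05 in D + P. It was well above background on 1 of the D and 2 of the D + P arrays and on no other. All D arrays lay above all C arrays, as for 11.9% of tested probes, with means of 5.02 and 4.27 (limma, adjusted p = 0.462). With 1 of these 6 arrays well above background, no fold is given. None of its C + P arrays was well above background, and the pargyline groups overlapped. *Slc2a10* was not well above background on any of 12 arrays. Its signals, from 2.90 to 4.36 over all arrays, were near background and support no comparison, and its differences enter only the counts over the 6 genes and the ranges under other processing.

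The genes most like each transporter in their pattern were found as the highest Pearson's r over the 12 arrays among 16852 other named genes, each by its brightest tested probe. For *Slc2a4* these were *Cdc34* (r = 0.963), *Rtn4r* (r = 0.961) and *Ankrd35* (r = 0.960). Their group means followed the same order, for instance 6.73 (C), 7.05 (C + P), 5.32 (D) and 4.69 (D + P) for *Rtn4r*. For *Slc2a1* they were *Surf4* (r = 0.948), *Zranb2* (r = 0.941) and *Cacfd1* (r = 0.931). For *Slc2a12* they were *Fbxo7* (r = 0.994), *Rtraf* (r = 0.990) and *Dmap1* (r = 0.989). All 3 of these lay in the same dim area of D + P replicate 3, with a neighbourhood median of -2.12 around *Fbxo7* and -2.13 around *Dmap1*, and without that array their r was 0.92, 0.823 and 0.843. For *Slc2a3*, *Tgds* came first (r = 0.826) and *E2f3* next (r = 0.787), and without D + P replicate 3 their r was 0.758 and 0.802. For *Slc2a8*, *Vezf1* came first (r = 0.899). For *Slc2a10*, not well above background, *Chchd4* came first (r = 0.943). Between *Slc2a1* and *Slc2a4*, both well above background on every array, r was 0.089. These points share arrays, slides and normalisation, and are descriptions of 12 arrays.

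Of the genes around glucose entry, 1 passed the threshold. *Txnip*, whose protein promotes the removal of GLUT1 and GLUT4 from the cell surface, rose in diabetic hearts by 1.35 log2 averaged over pargyline (SE 0.20, adjusted p = 0.0423 by limma). It ranged from 12.65 to 13.43 on the 6 non-diabetic and from 14.07 to 15.01 on the 6 diabetic arrays, with no overlap, as 0.613% of tested probes did in this direction. The call was kept without D replicate 3 or D + P replicate 1, at adjusted p-values of 0.0414 and 0.0351, and lost without any of the other 10 arrays, at 0.0699 to 0.141, while the change stayed between 1.22 and 1.46. The other 10 genes tested in the list for GLUT1 expression and turnover did not pass, and the median change of the list was 0.15.

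Downstream of entry, *Hk3*, a hexokinase that traps glucose in the cell as its phosphate, and *G6pc3*, a phosphatase that reverses this step, did not pass. Their averaged diabetes changes were -0.50 (SE 0.18, adjusted p = 0.345 by limma) and -0.30 (SE 0.11, adjusted p = 0.347).

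The machinery that moves GLUT4 showed differences of either sign and no call. Of 21 listed genes of GLUT4 vesicle traffic 20 were tested, with a median change of 0.02 in diabetes averaged over pargyline. *Stx4a*, the surface syntaxin with which GLUT4 vesicles fuse, was lower in all diabetic than in all non-diabetic hearts, with means of 12.91 and 12.96 in C and C + P against 12.54 and 12.67 in D and D + P (change -0.33, SE 0.09, adjusted p = 0.229 by limma), beside the 0.652% of all tested probes that did so. *Rab13*, a vesicle GTPase, had a probe that was not well above background on any array, so its plotted value is no measured change. *Lrp1*, a cargo receptor of these vesicles, differed by 0.23 (SE 0.12, adjusted p = 0.495 by limma).

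Insulin signalling to GLUT4 and its transcriptional regulators held no call either. All 13 signalling genes were tested, and for averaged diabetes 3 were lower and 3 higher with an unadjusted p under 0.05, beside 11.4% of all tested probes. *Pik3r1*, the regulatory subunit of phosphoinositide 3-kinase, differed by -0.50 (SE 0.15, adjusted p = 0.273 by limma), with all diabetic below all non-diabetic arrays, as for 0.652% of tested probes. *Grb10*, an adaptor that binds and restrains the insulin receptor, differed by -0.38 (SE 0.15, adjusted p = 0.387), and *Trib3*, an inhibitor of AKT, by 0.32 (SE 0.12, adjusted p = 0.365). The *Trib3* difference was -0.07 (SE 0.17) between D and C and 0.71 (SE 0.17) between D + P and C + P, with an interaction of 0.78 (SE 0.24, adjusted p = 0.639 by limma). *Irs2*, an adaptor of the insulin receptor that was picked out after its values were seen, had means of 9.09 in C, 10.10 in C + P and 9.97 in both diabetic groups. Its difference was 1.01 (SE 0.21, adjusted p = 0.383 by limma) between C + P and C and 0.88 (SE 0.21, adjusted p = 0.27) between D and C. Of the 10 genes of *Slc2a4* transcription, *Hdac4*, a histone deacetylase that represses MEF2 targets, had the smallest p, with a difference of -0.72 (SE 0.20, adjusted p = 0.235 by limma) and the same full separation. *Klf15* and *Ppargc1a*, activators of *Slc2a4* expression, differed by 0.29 (SE 0.14, adjusted p = 0.474) and 0.23 (SE 0.13, adjusted p = 0.525). Of the 8 genes of AMP-activated protein kinase and its upstream kinases, 0 passed. The subunits *Prkab2*, *Prkag2* and *Prkag1* differed by -0.51 (SE 0.20), 0.48 (SE 0.19) and 0.22 (SE 0.12), with adjusted p-values of 0.388, 0.395 and 0.514 by limma.

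Other sugar transporters were mostly not measurable in this tissue. Of 6 further SLC2 genes 2 were tested. *Slc2a13*, a proton-coupled inositol transporter, had 4 of 12 arrays well above background, 0 of them in C + P, and is not compared. *Slc2a9*, a urate transporter, was well above background on every array and differed by 0.00 (SE 0.19, adjusted p = 0.999 by limma). Of 8 sodium-coupled and SWEET transporter genes 4 were tested. *Slc50a1*, the mammalian SWEET, was well above background on every array and differed by 0.09 (SE 0.13, adjusted p = 0.826 by limma). *Slc5a2*, which encodes the renal sodium-glucose transporter SGLT2, was not well above background on any array, and *Slc5a9* was so on 1.

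**Figure D5:**
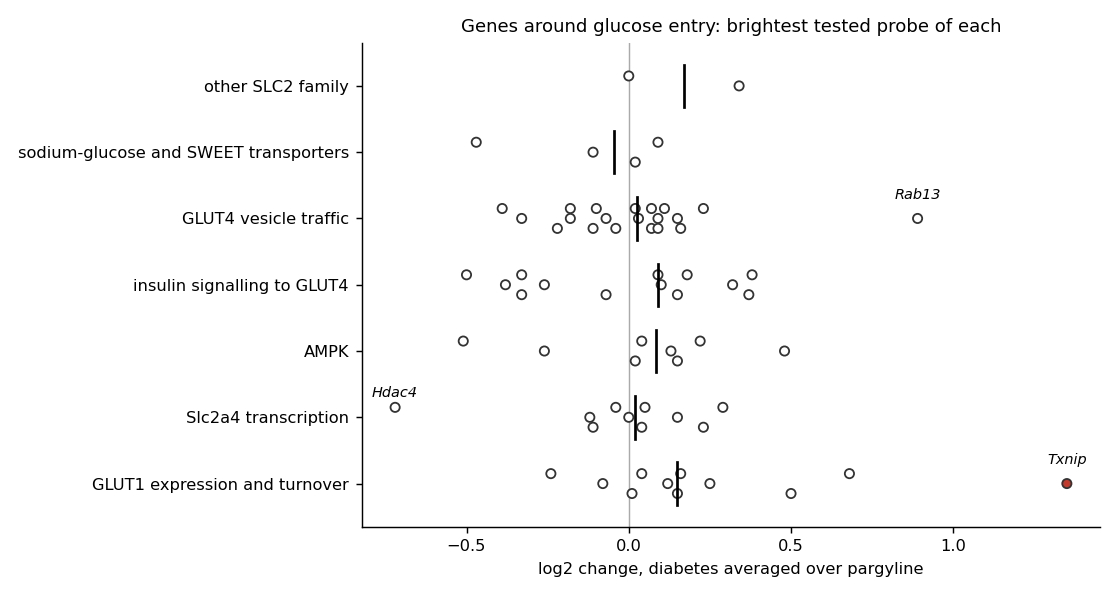
Log2 change in diabetes averaged over pargyline (x axis) for the brightest tested probe of each gene in 7 lists (y axis, where the offset within a list only separates points). Bars are list medians, and the red point is the 1 gene that passed, *Txnip* at 1.35. *Hdac4* at -0.72 is the lowest point, and the list medians lie between -0.05 and 0.17.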

How the data were processed

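The authors hybridised 200 ng of labelled total RNA per heart to 1-colour Agilent arrays and deposited Feature Extraction 12.0.0.7 output, per the file headers, with the processed signal, mean signal and background as intensity values. Per their methods, they quantile-normalised signals and compared groups by t-test. The deposited series table holds processed intensity values of the same arrays and was used as an alternative. Here processed signals of 59305 non-control spots per array were put on the log2 scale, quantile-normalised and averaged by probe, without outlier-flagged spots. Values are log2 signal, as from the deposited intensities. Tested were probes with positive, significant signals on 50% or more of each group's arrays. Groups were fitted with limma 3.58.1 in R 4.3.3 (8 residual degrees of freedom), with Benjamini-Hochberg adjustment over 30859 probes at 0.05. Within-array differences used exact permutation of diabetes within slides. The 12 arrays limit the precision.

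Named are all transporter probes, and from each of 8 gene lists every gene past the threshold in any contrast or otherwise the 3 with the smallest p for diabetes averaged over pargyline. Of the list for glucose phosphorylation 1 gene, and the list's summary, are not reported here. Symbols came from the files, or from RefSeq for the 32994 probes whose accession matched. The members and lists were chosen with earlier results of these data known. Alternatives covered scaling, background correction, the deposited table, filters, weights, blocks, the methods' t-test and each array left out. A local correction for array areas and the omission of the 5 arrays of highest spread were chosen after seeing the data.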

Additional observations from a re-analysis of the deposited data

How the results depend on the processing

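No transporter probe passed the threshold under any alternative in any of the 6 contrasts, although calls over all probes ranged from 1 to 397 for averaged diabetes (33 as reported), from 0 to 106 for D against C (2), from 1 to 69 for D + P against C + P (14), from 0 to 184 for C + P against C (10), from 0 to 11 for D + P against D (0) and from 0 to 5 for the interaction (2). The bright *Slc2a4* probe kept its direction under all 23 alternatives for averaged diabetes, from -0.45 to -0.21, the latter with normexp. Its lowest adjusted p was 0.0606 by limma with array weights. *Slc2a1* minus *Slc2a4* had a p under 0.05 in 17 of 18 alternatives, and in 15 after adjustment over the 2 within-array tests, the others being 75th percentile scaling (0.40, adjusted p = 0.06, exact permutation test), the replicate block and the 5 arrays left out, where it was 0.35 (exact permutation test, p = 0.0556, adjusted 0.111). The difference between the *Slc2a4* probes, of which the dim one was mostly not well above background, passed with normexp (-0.27, exact permutation test, p = 0.04) and ranged from -0.39, past the threshold without D replicate 3, to -0.16 over single arrays left out. The call of *Txnip* was also lost without a filter on dim probes (adjusted p = 0.0592 by limma), with the replicate block (0.0681) and without the 5 arrays (0.184). The causes were not tested.

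Same-numbered samples of different groups had correlations of -0.204 to 0.2, with 4 of 18 over 0.1, which gave no clear sign of pairing. Replicate 1 of each group was among the 5 arrays of highest spread, so these correlations do not show that the numbers share nothing. With the replicate block *Slc2a1* minus *Slc2a4* kept its 0.48 (exact permutation test, p = 0.0312, the smallest that this blocked test allows, adjusted 0.0624).

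Changes of direction concerned values that did not pass. With 75th percentile scaling *Slc5a9* averaged over pargyline was 0.15, and the dim *Slc2a4* probe 0.06 in D + P against C + P. With normexp *Slc50a1* was -0.04, *Slc2a12* A_55_P2146555 -0.07 between D and C, *Slc2a1* 0.01 between D + P and C + P, *Slc2a3* 0.00 on average and *Slc2a10* -0.06 between D + P and D, and the dim *Slc2a4* probe was 0.05 between D and C, 0.08 under pargyline and 0.07 on average. With values not positive and significant set to missing, A_55_P2146555 was 0.63 between D + P and C + P, 0.36 on average, 0.29 between D + P and D and 0.54 in the interaction, and *Slc2a10* was -0.23 between D + P and D. With array weights *Slc5a9* was 0.28, A_55_P2146555 -0.08 between D and C, *Slc2a1* -0.04 between C + P and C, *Slc2a8* -0.07 and *Slc2a10* -0.02 between D + P and D, and the dim *Slc2a4* probe 0.21 under pargyline, 0.03 on average and -0.07 between C + P and C. With the local correction *Slc5a9* was 0.05, the dim *Slc2a4* probe 0.04 under pargyline, *Slc2a1* -0.09 between C + P and C and *Slc2a8* 0.00 between D + P and D. Without the 5 arrays *Slc50a1* was -0.12, *Slc5a9* 0.42, A_55_P2146555 -0.04 between D and C, 0.43 under pargyline, 0.20 on average, 0.24 between D + P and D and 0.47 in the interaction, and A_51_P345775 0.46 under pargyline and 0.02 between C + P and C. There *Slc2a1* was -0.04 on average and -0.13 between C + P and C, the bright *Slc2a4* probe -0.03 between C + P and C, the dim one 0.02 under pargyline, and *Slc2a10* -0.21 between C + P and C and 0.28 in the interaction.

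With single arrays left out, the following ranges crossed 0. For diabetes averaged over pargyline they were -0.38 to 0.17 for *Slc5a9*, -0.09 to 0.12 for *Slc2a9*, -0.71 to 0.36 for A_55_P2146555 and -0.09 to 0.44 for A_51_P345775. Between D and C the range was -0.03 to 0.22 for A_55_P2146555. Between D + P and C + P they were -1.51 to 0.63 for A_55_P2146555, -0.83 to 0.23 for A_51_P345775, -0.26 to 0.06 for *Slc2a1*, -0.29 to 0.16 for the dim *Slc2a4* probe, -0.18 to 0.53 for *Slc2a8* and -0.03 to 0.58 for *Slc2a10*. Between C + P and C they were -0.10 to 0.18 for *Slc2a1* and -0.01 to 0.07 for the bright *Slc2a4* probe. Between D + P and D they were -1.85 to 0.29 for A_55_P2146555, -0.12 to 0.19 for *Slc2a8* and -0.23 to 0.49 for *Slc2a10*. For the interaction they were -1.60 to 0.54 for A_55_P2146555, -0.58 to 0.14 for *Slc2a10* and -0.11 to 0.33 for the dim *Slc2a4* probe. The slide was used as a block only for averaged diabetes, and the methods' t-test was run for the 4 pairs of groups. Where probes were near background, as for *Slc2a3*, *Slc2a8* and *Slc2a10*, the arrays give bounds and not levels.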

Other observations

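The dim areas on D + P replicate 3 reached beyond the transporters. On this array 865 tested probes, 2.8% of those tested, had a neighbourhood median below -1. They were counted over the area around *Slc2a12* and the strip at the right edge together. Of them 614 (71.1%) had their lowest value of all 12 arrays there, against 6.76% of the tested probes outside. Without this array the genes most like *Slc2a12* were *Hltf* (r = 0.942), *Nek8* (r = 0.926) and *Erbin* (r = 0.924) over 11 arrays, and *Hltf* and *Erbin* also had spots in dim neighbourhoods on the array left out.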
